A study of Mus musculus with 20 samples.

Results

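The genes described here code for the protein parts of the cytosolic ribosome. They were chosen by symbol: every name that begins with Rpl or Rps and a digit, plus Rplp0, Rplp1, Rplp2 and Rpsa, without the Rps6k kinases and without pseudogenes marked -ps. The rule took 87 of the 24059 genes in the files, of which 52 carry large-subunit and 35 small-subunit names. Of the 87, 77 are the standard subunits and 8 are paralogs (Rpl3l, Rpl10l, Rpl22l1, Rpl36al, Rpl39l, Rps4l, Rps27l and Rps27rt). The other 2 carry such a name without being subunits: Rpl7l1 is a ribosome assembly factor and Rps19bp1 a protein that binds Rps19. A symbol rule cannot see every pseudogene, and Rps4l was kept although RefSeq annotates it as a transcribed pseudogene.

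Libraries of messenger RNA came from the left ventricular free wall of adult male C57BL/6 mice of about 9 to 13 weeks, in 4 groups of 5 libraries. CardioGRKO mice, genotype GRfl/fl alphaMHCCre/+, carry Nr3c1, the gene of the glucocorticoid receptor, in floxed form on both chromosomes, and Cre driven by the cardiomyocyte promoter alphaMHC (alpha myosin heavy chain). GRflox mice are littermates with the same floxed alleles (GRfl/fl) and no Cre, so receptor loss and the presence of Cre cannot be told apart. Each genotype was sampled at ZT12, the start of lights off, and at ZT0, the start of lights on.

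A ribosome has a small subunit, which reads the message, and a large subunit, which joins amino acids. Most standard proteins are present about once per ribosome. The messages of these proteins begin with a run of C and U bases, the terminal oligopyrimidine or TOP motif, through which the kinase mTOR sets how much of each message is translated. Message level and protein output can therefore part, and only message levels were measured here. Several proteins have a paralog that can take their place. Rpl3l, which replaces Rpl3 next to the catalytic centre, is known for its restriction to heart and skeletal muscle.

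Whether the counts can separate a subunit from its paralog depends on their sequences, so a stretch of 60 bases is shown for 3 pairs, taken from the middle of the longest gap-free block of their alignment, 5′ to 3′, with the bases at which the partners differ in capitals. They were read from GENCODE M21 transcripts on GRCm38 (mm10). Rpl3 lies at chr15:80077781-80083406 and Rpl3l at chr17:24727826-24736143, and their coding sequences are 74.3% identical over 1208 aligned bases. Rps4x lies at chrX:102184941-102189391 and the intronless Rps4l at chr6:148354656-148355596, with 80.1% identity between the coding sequence of Rps4x and the Rps4l transcript over 789 bases. Rps27 lies at chr3:90212667-90213648 and Rps27l at chr9:66944624-66949522, with 75.9% identity of coding sequence over 232 bases. The stretches differ at 16, 13 and 12 positions.
Rpl3l: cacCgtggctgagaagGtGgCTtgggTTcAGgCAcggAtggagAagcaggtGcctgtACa
Rpl3: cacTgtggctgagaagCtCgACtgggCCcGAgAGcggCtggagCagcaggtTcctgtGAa
Rps4l: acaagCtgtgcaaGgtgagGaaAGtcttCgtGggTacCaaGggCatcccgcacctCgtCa
Rps4x: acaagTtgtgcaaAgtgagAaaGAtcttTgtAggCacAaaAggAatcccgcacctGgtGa
Rps27l: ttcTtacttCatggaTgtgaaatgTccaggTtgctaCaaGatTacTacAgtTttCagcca
Rps27: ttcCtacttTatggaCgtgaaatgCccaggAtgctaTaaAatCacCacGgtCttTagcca

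Reads had 75 bases, and most members share stretches of that length with pseudogenes or other copies. Of all 75-base windows of its transcripts, 83.2% of those of Rpl3, 52.9% of Rps4x and 52.0% of Rps27 were also found in another annotated gene. Their paralogs shared fewer, with 0% for Rpl3l, 6.67% for Rps4l and 8.82% for Rps27l. The order was the other way for Rpl22l1, at 37.8%, and Rpl22, at 1.42%. Rpl36a shared 84.6% and Rpl36al 61.3%. How the counting treated reads that match several genes, and whether it used strand, are points not given in the sources used here. Levels of members with many copies are therefore uncertain.

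Runs of C and T bases lay unevenly near the annotated starts. An unbroken run of at least 8 C or T bases lay within 30 bases of an annotated start in 35 of the 66 members with an entry in the RefSeq promoter table (mm10), or 53.0%, against 25.8% of the 27025 genes in the table. Read on the other strand, as a run of A or G, the shares were 12.1% and 28.7%. A run on either side of the start was counted, so some can lie upstream of the message. The windows below hold 15 bases on each side of an annotated start, with the longest run in capitals, for 3 members whose level differed between genotypes and for Rpl3l. They lie at chr11:114668565-114668594 (+ strand), chr9:66946071-66946100 (+ strand), chr5:115559452-115559481 (+ strand) and chr17:24727811-24727840 (+ strand). Runs of 10 and 9 bases are seen for Rpl38 and Rps27l and of 5 bases for Rplp0 and Rpl3l. Of these runs, only that of Rpl38 spans the annotated start. Those of Rps27l and Rplp0 end upstream of it, outside a message that begins there, and that of Rpl3l lies downstream. Rps27l and Rpl3l each have 2 starts in the promoter table, of which the upstream one is shown. The longest run at the downstream one is 4 bases in both. The annotated gene spans of Rps27l and Rpl38 begin further upstream than the windows shown, at chr9:66944624 and chr11:114667818. A window without a long run says only that these letters are not at the annotated start.
Rpl38 start: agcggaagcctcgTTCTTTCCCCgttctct
Rps27l start: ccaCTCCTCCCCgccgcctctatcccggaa
Rplp0 start: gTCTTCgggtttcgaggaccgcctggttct
Rpl3l start: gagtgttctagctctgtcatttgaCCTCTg

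The libraries held 5854462 to 37648421 counted reads, with a median of 23223656. The shallowest, replicate 1 of CardioGRKO at ZT0, is also the only one whose file carries another prefix than the rest, which the labels do not explain, and it lay apart on the first principal component (34.5, against 15.8 to 18.95 for the rest of its group). Results that rest on it are given with and without it. Nr3c1 averaged 51.0 ± 3.50 CPM (counts scaled to a common library size) in CardioGRKO and 107 ± 7.98 CPM in GRflox at ZT12, and 55.2 ± 3.51 against 115 ± 6.11 CPM at ZT0 (SD, n = 5 each). The labels tie no replicate to a named animal, so the p-values measure the spread between libraries. The summed level of 10 cardiomyocyte markers was lower in CardioGRKO, at 109700 to 121300 CPM against 121700 to 126800 CPM in GRflox at ZT12, with 8 of 10 called lower, and at 111100 to 116000 against 121300 to 124300 CPM at ZT0, with 6 of 10 called lower. Endothelial markers had 4 of 10 called lower at ZT12 and 5 of 10 at ZT0, and pericyte and smooth muscle markers 2 and 4 of 9. Of the 5 erythroid markers, 4 were at 0 in every library. In bulk RNA, fewer cells of a type and less RNA per cell cannot be told apart. Atrial markers summed to 134 to 445.5 CPM in CardioGRKO and 74.3 to 255 CPM in GRflox at ZT12, and 103 to 453 and 60.8 to 188 CPM at ZT0, with 1 of 4 called higher at both times. Between times the endothelial markers summed to 1362 to 1695 CPM at ZT12 and 1650 to 1783 CPM at ZT0 in CardioGRKO, with 1 of 10 called higher and 5 lower, and to 1562 to 1639 and 1786 to 1911 CPM in GRflox, with 0 higher and 6 lower. These shifts move with genotype or time, and their part in the results below was not tested.

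Ribosomal protein messages made up about 1% of the counted reads in every library. The members' share was 1.13, 1.14, 1.20, 1.16 and 1.12% in CardioGRKO at ZT12, against 1.14, 1.13, 1.07, 1.06 and 1.03% in GRflox at ZT12. At ZT0 it was 1.24, 1.17, 1.13, 1.13 and 1.15% in CardioGRKO, against 1.12, 1.08, 1.06, 1.08 and 1.09% in GRflox. The means were 1.15 ± 0.030% and 1.09 ± 0.047% at ZT12 and 1.17 ± 0.043% and 1.09 ± 0.021% at ZT0 (SD, n = 5 each). The shares of both genotypes overlapped at ZT12 and did not at ZT0, where the highest value was that of the shallowest library. A share depends on the most abundant genes, and cardiomyocyte markers were lower in CardioGRKO. With the 50 most abundant genes left out, the means were 1.54 and 1.495% at ZT12 and 1.57 and 1.48% at ZT0. The groups at ZT0 then overlapped, with 1.52 to 1.66% in CardioGRKO and 1.45 to 1.53% in GRflox.

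On the CPM scale used for the tests, which is rescaled by TMM so that most genes keep their level, the summed levels at ZT12 differed by less than the spread between libraries. The small-subunit members summed to 4483 ± 133 CPM in CardioGRKO and 4483 ± 172 CPM in GRflox at ZT12, and the large-subunit members to 6706 ± 172 and 6764 ± 259 CPM. At ZT0 the small-subunit sum was 4547 ± 137 CPM in CardioGRKO and 4377 ± 55.7 CPM in GRflox, and the large-subunit sum 6877 ± 207 and 6651 ± 139 CPM. The balance between the subunits hardly moved: small-subunit members held 40.1 ± 0.29% of the members' summed level in CardioGRKO and 39.9 ± 0.26% in GRflox at ZT12, and 39.8 ± 0.18% and 39.7 ± 0.28% at ZT0 (SD, n = 5 each).

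**Figure D1:**
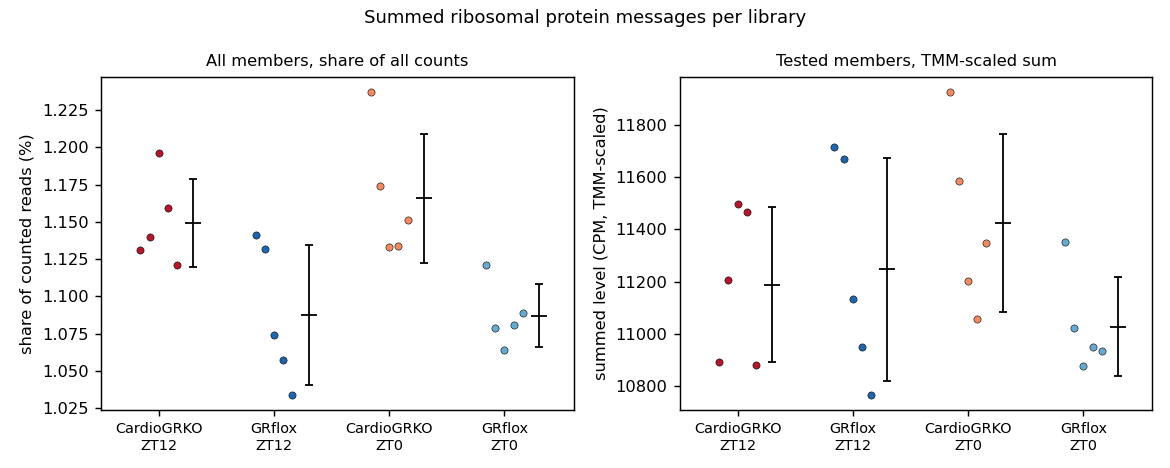
Summed ribosomal protein messages in each of the 20 libraries, as a percent of all counts (left, 87 members) and as a TMM-scaled sum in CPM (right, 81 tested members); points are libraries and bars the mean ± SD, n = 5. At ZT0 the lowest CardioGRKO share, 1.13%, lies above the highest GRflox share, 1.12%, and at ZT12 the TMM-scaled sums overlap. The vertical axes do not start at 0.

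Within a ribosome most standard proteins are about equal in number, but the counted levels were not. Levels of different genes are compared as CPM per kilobase of annotated exon, averaged over the 20 libraries. Rplp1, an acidic protein of the stalk that recruits elongation factors, was highest at 545 CPM per kilobase, followed by Rps2 (435), which lies near the mRNA entry channel, and Rps29 (394). The lowest of the 81 tested members were Rps27 (0.532), Rpl22l1 (3.68) and Rps19bp1 (7.81). A gene with long alternative transcripts gets a low value on this scale, as for Rps15a with 5179 bases of annotated exon and 15.8 CPM per kilobase.

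Some subunits that every cell uses were nearly missing from the counts. Rpl26 had 0 counts in all 20 libraries together, Rpl30 had 38 and Rpl34 had 58, and Rps27 passed the filter with 131. Such totals are far under those of neighbours in the same ribosome, such as 39216 for Rpl10. The share of windows found elsewhere was 57.5% for Rpl26, 73.95% for Rpl30, 26.7% for Rpl34 and 52.0% for Rps27, and 91.9% for Rpl10. The cause of the low totals was not tested. Rpl10l (0 counts), Rps27rt (0) and Rpl39l (18), paralogs known from the mouse testis or from retrocopies, also stayed out of the fit, which leaves 81 of the 87 members.

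**Figure D2:**
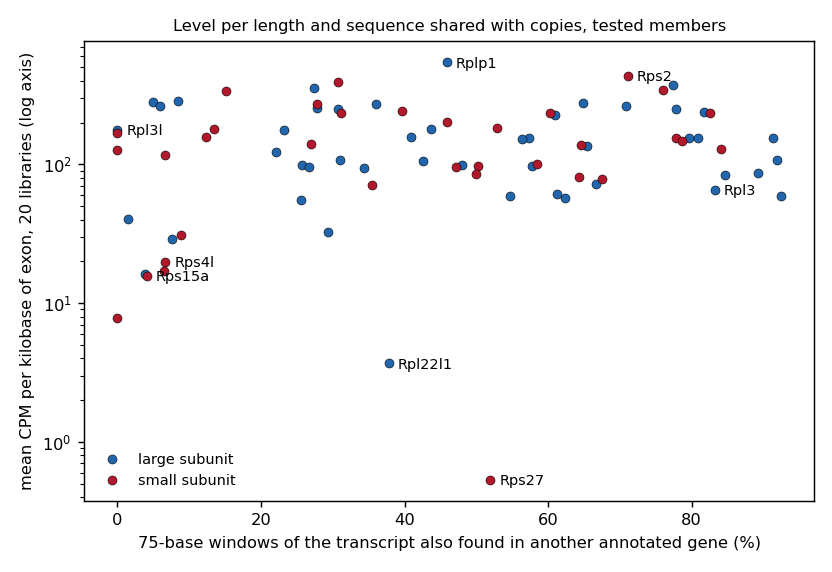
Mean level of the 81 tested members in CPM per kilobase of exon (log axis) against the percent of 75-base transcript windows also found in another annotated gene; red points are small-subunit and blue points large-subunit names. Rpl3l and Rpl3 lie at 0% and 83.2% shared windows, and Rps27 is lowest at 0.532 CPM per kilobase.

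The genotype comparison at ZT12 addresses receptor loss at lights off. Of the 81 tested members, 5 were higher (Rps4l, Rps27l, Rpl38, Rpl22 and Rps12) and 3 lower in CardioGRKO (among them Rplp0 and Rps2). Genes were called by edgeR's quasi-likelihood test at a Benjamini-Hochberg adjusted p under 0.05 over all 14007 genes tested. The calls make up 9.88% of the members, below the 21.1% of all genes tested (10.4% higher and 10.7% lower). The members' median log2 fold change was 0.011, beside 0.0042 for all genes, and 41 of the 81 were positive. The median lay between -0.0070 and 0.038 in 21 alternative settings and was negative without GRflox replicate 3, 4 or 5 or CardioGRKO replicate 3.

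At ZT0, lights on, 9 members were higher in CardioGRKO (among them Rps4l, Rps27l, Rpl36a, Rpl11, Rpl22, Rpl18, Rps10 and Rps4x) and 1 was lower (Rps14). The share called, 12.3%, was near the background of 14.7% (7.36% higher and 7.35% lower). Differences were small but mostly of 1 sign: 69 of 81 members were positive, against 48.3% of all genes, and the median was 0.065, beside -0.0061 for all genes. This median stayed between 0.046 and 0.090 in 21 alternative settings. The members share libraries and scaling, so these signs are not independent of each other. Without the shallowest library 3 members were called higher (Rps4l, Rps27l and Rpl36a) and 1 lower (Rps14), and without GRflox replicate 3 the higher calls numbered 5. By subunit, 5 of 34 small-subunit and 4 of 47 large-subunit members were higher at ZT0, and 3 and 2 at ZT12. Of the 15 members with under 10% of windows in copies, 3 were called at ZT12 and 3 at ZT0, and of the 36 with over 50%, 2 were called at ZT12 and 5 at ZT0.

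**Figure D3:**
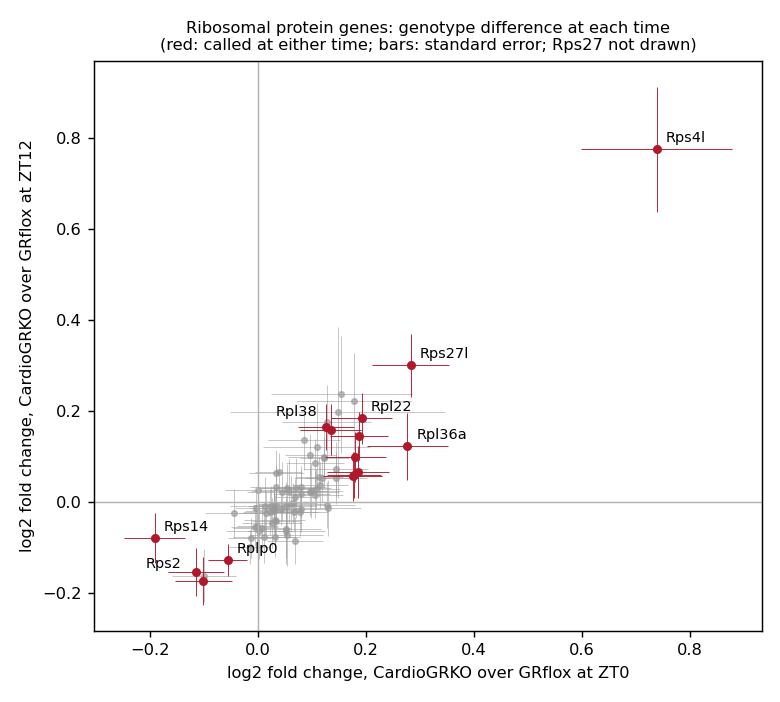
Log2 fold change of CardioGRKO over GRflox at ZT12 (vertical) and at ZT0 (horizontal) for 80 members, with standard errors as bars and members called at either time in red. Rps4l stands farthest from 0 at both times, at 0.77 and 0.74, and Rps27l follows at 0.30 and 0.28; Rps27, with 131 counts in all, is not drawn.

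Rps4l had the largest difference of the called members. At ZT12 its level was 20.7, 27.1, 26.5, 24.6 and 23.4 CPM in CardioGRKO, against 16.6, 16.2, 16.2, 11.2 and 10.4 CPM in GRflox. Every CardioGRKO library lay above every GRflox library, a pattern found in the same direction in 6.60% of all genes tested and in 3 members (Rps4l, Rps27l and Rpl38). The level was 1.71-fold higher, with a log2 fold change of 0.77 ± 0.14 (edgeR adjusted p = 0.000201). At ZT0 it was 23.9, 28.3, 20.5, 25.1 and 15.8 CPM in CardioGRKO, against 14.4, 11.2, 14.3, 13.1 and 15.8 CPM in GRflox, with 4 of the 5 CardioGRKO libraries above all of GRflox and the lowest among them. The log2 fold change there was 0.74 ± 0.14 (edgeR adjusted p = 0.000681) and 0.73 (adjusted p = 0.00178) without the shallowest library. The call held in all 21 alternatives at both times. No other annotated gene has an exon over Rps4l, and only 6.67% of its windows occur elsewhere.

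Its partner Rps4x, the X-linked small-subunit protein that Rps4l resembles, was far more abundant, at 182 against 19.9 CPM per kilobase. It had 174, 187, 186, 171 and 187 CPM in CardioGRKO, against 194, 179.8, 164, 164 and 163 CPM in GRflox at ZT12, where the groups overlapped and the log2 fold change was 0.066 ± 0.057 (edgeR adjusted p = 0.461). At ZT0 the values were 202, 186, 177, 172 and 209.9 CPM in CardioGRKO, against 162, 165, 168, 156 and 179 CPM in GRflox, again with overlap, and the log2 fold change was 0.18 ± 0.058 (edgeR adjusted p = 0.0311). That call was lost without CardioGRKO replicate 1 or 5, or GRflox replicate 1, 2, 3 or 4, with values of 0.15 to 0.19 and adjusted p of 0.0507 to 0.0876, and also when thinned to the smallest library and with a length correction (0.14 to 0.16, adjusted p of 0.0748 to 0.359). Rps4l held 12.3 ± 0.96% of the pair's level per kilobase in CardioGRKO and 7.75 ± 1.32% in GRflox at ZT12, and 11.1 ± 2.54% and 7.88 ± 0.77% at ZT0 (SD, n = 5 each).

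Rps27l, a paralog of the zinc-binding protein Rps27 and in mouse and human a target of the p53 pathway, was the only member called at both times with separate groups at both. At ZT12 it had 21.4, 18.98, 22.6, 20.9 and 17.6 CPM in CardioGRKO, against 17.1, 15.8, 16.9, 17.4 and 15.5 CPM in GRflox. At ZT0 it had 22.9, 19.3, 18.1, 17.9 and 19.1 CPM in CardioGRKO, against 15.9, 16.4, 15.9, 15.5 and 15.1 CPM in GRflox. All CardioGRKO values lay above all GRflox values at both times. The log2 fold change was 0.30 ± 0.069 (edgeR adjusted p = 0.00277) at ZT12 and 0.28 ± 0.071 (edgeR adjusted p = 0.0082) at ZT0, or 0.24 (adjusted p = 0.0214) without the shallowest library, which held the highest value. The calls were lost only when all libraries were thinned to the smallest depth. Rps27 itself ranged from 0.0885 to 0.494 CPM in CardioGRKO and from 0.0837 to 0.554 CPM in GRflox over both times, and its log2 fold changes of -0.074 ± 0.40 at ZT12 and -0.74 ± 0.45 at ZT0 did not pass (edgeR adjusted p = 0.93 and 0.307).

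Rpl22, a large-subunit protein that in mouse represses its own paralog Rpl22l1, was also called higher at both times. At ZT12 it had 79.9, 89.5, 86.9, 85.9 and 90.8 CPM in CardioGRKO, against 82.4, 80.97, 69.2, 73.1 and 75.6 CPM in GRflox, where the ranges overlapped. At ZT0 it had 97.6, 87.8, 86.97, 82.1 and 97.8 CPM in CardioGRKO, against 80.5, 81.5, 72.8, 78.3 and 80.7 CPM in GRflox, without overlap. The log2 fold changes were 0.18 ± 0.056 (edgeR adjusted p = 0.0203) and 0.19 ± 0.056 (edgeR adjusted p = 0.0218). The ZT12 call was lost without GRflox replicate 3 or 4, with values of 0.15 to 0.17 and adjusted p of 0.0501 to 0.0736. The ZT0 call was lost without CardioGRKO replicate 1 or 5, or GRflox replicate 3, with values of 0.16 to 0.17 and adjusted p of 0.0574 to 0.0678.

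Rpl22l1 was scarce, at 3.68 CPM per kilobase. At ZT12 it had 2.66, 3.50, 2.64, 2.47 and 2.61 CPM in CardioGRKO, against 2.82, 3.14, 1.88, 1.63 and 2.61 CPM in GRflox, and at ZT0 2.63, 2.33, 2.17, 1.85 and 3.54 CPM in CardioGRKO, against 2.85, 1.66, 2.34, 1.86 and 2.07 CPM in GRflox. The groups overlapped at both times, and the log2 fold changes of 0.20 ± 0.19 and 0.15 ± 0.20 did not pass (edgeR adjusted p = 0.512 and 0.69). The 95% intervals, -0.17 to 0.57 and -0.24 to 0.54, include differences in either direction.

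**Figure D4:**
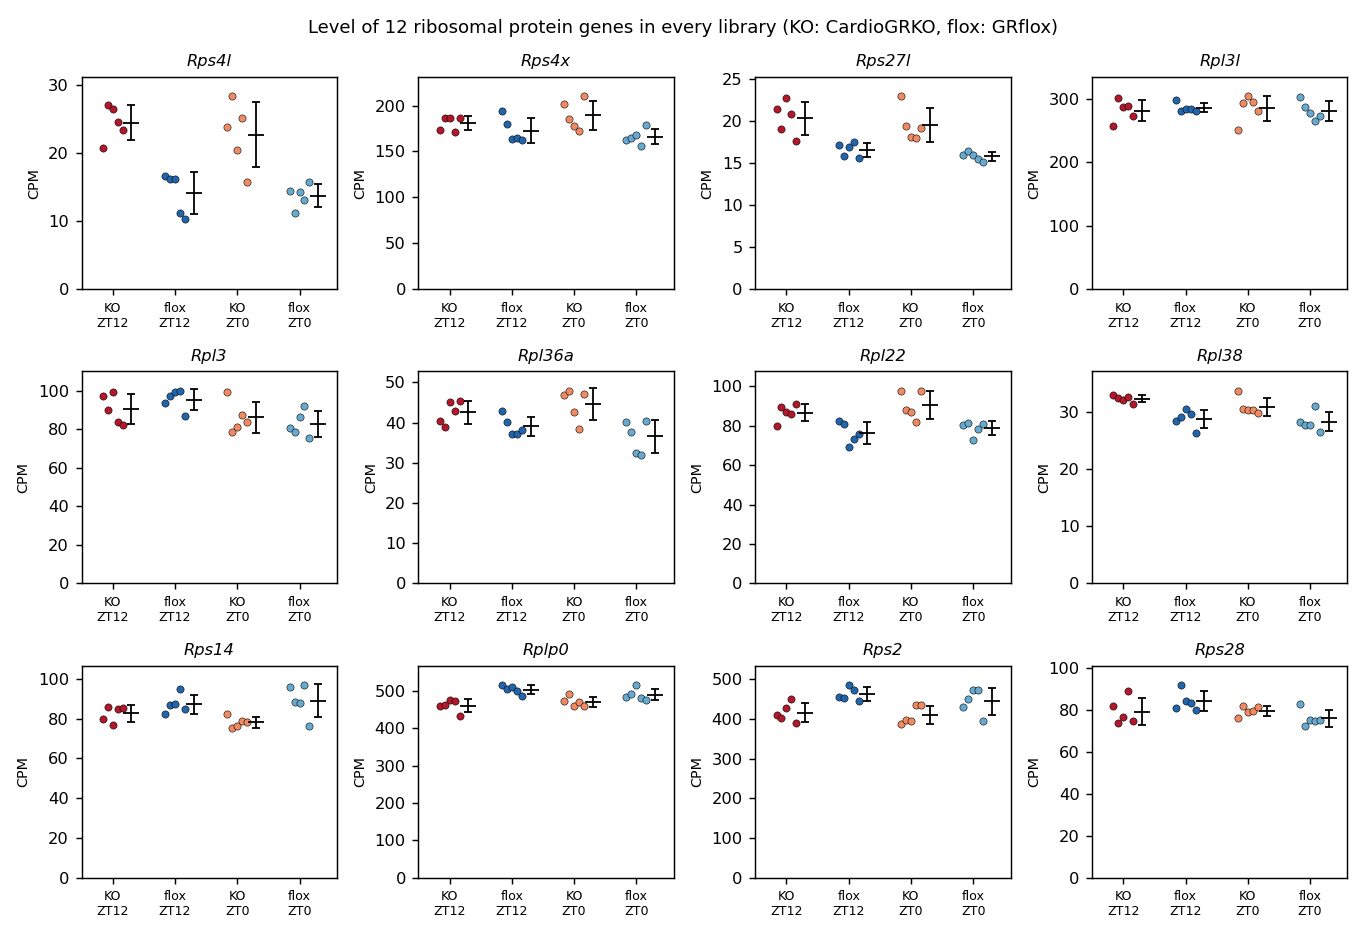
Level in CPM (from 0, separate scale per gene) of 12 members in all 20 libraries, by group; points are libraries and bars the mean ± SD, n = 5. The CardioGRKO libraries lie above those of GRflox for Rps4l at ZT12 and for Rps27l at both times, while Rpl3l stays between 252 and 304 CPM in every library.

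Rpl36a, a large-subunit protein near the tRNA exit site, was called higher at ZT0 only, but the difference between the times did not pass, with an interaction of -0.15 ± 0.10 (edgeR adjusted p = 0.925). At ZT0 it had 46.9, 47.9, 42.6, 38.5 and 47.1 CPM in CardioGRKO, against 40.2, 37.7, 32.6, 31.8 and 40.5 CPM in GRflox. At ZT12 it had 40.4, 38.8, 45.1, 43.0 and 45.5 CPM in CardioGRKO, against 42.8, 40.0, 37.2, 37.3 and 38.1 CPM in GRflox. The groups overlapped at both times, with log2 fold changes of 0.28 ± 0.075 (edgeR adjusted p = 0.0131) at ZT0 and 0.12 ± 0.073 (edgeR adjusted p = 0.264) at ZT12, and the ZT0 value was 0.26 (adjusted p = 0.0308) without the shallowest library. Its paralog Rpl36al had 30.04, 33.8, 31.7, 31.5 and 32.2 CPM in CardioGRKO, against 33.7, 30.4, 30.7, 31.6 and 29.6 CPM in GRflox at ZT12. At ZT0 Rpl36al had 34.1, 35.3, 32.8, 29.2 and 35.7 CPM in CardioGRKO, against 33.5, 32.2, 31.2, 32.0 and 31.5 CPM in GRflox. These ranges overlapped, and the log2 fold changes were 0.029 ± 0.054 (edgeR adjusted p = 0.761) and 0.055 ± 0.055 (edgeR adjusted p = 0.571). The coding sequences of the pair are 87.8% identical, and 24.5% of the annotated exon bases of Rpl36al lie under another gene model. Neither shares a 75-base window with the other, and the windows they share lie in pseudogenes or other gene models.

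Rpl38, a large-subunit protein known in mouse for its role in translating homeobox messages, had 33.0, 32.5, 32.1, 32.7 and 31.4 CPM in CardioGRKO, against 28.4, 29.1, 30.6, 29.6 and 26.4 CPM in GRflox at ZT12, with no overlap. The log2 fold change was 0.16 ± 0.050 (edgeR adjusted p = 0.0201), and 0.14 (adjusted p = 0.0651) without GRflox replicate 5. At ZT0 it had 33.8, 30.5, 30.4, 30.3 and 29.8 CPM in CardioGRKO, against 28.2, 27.8, 27.8, 31.1 and 26.6 CPM in GRflox, with overlap, and 0.13 ± 0.051 (edgeR adjusted p = 0.101). The call of Rps12, 0.16 ± 0.055 (edgeR adjusted p = 0.0441) at ZT12, was lost without CardioGRKO replicate 2, 3 or 5, or GRflox replicate 3, 4 or 5, with values of 0.13 to 0.15 and adjusted p of 0.0759 to 0.116, and also with DESeq2 size factors, with no filter, with only the groups compared and when thinned to the smallest library (0.028 to 0.16, adjusted p of 0.0511 to 0.909). Among the other higher calls at ZT0 were 0.18 ± 0.051 for Rpl11, which can bind the p53 regulator Mdm2, 0.18 ± 0.056 for Rpl18 and 0.18 ± 0.055 for Rps10 (edgeR adjusted p = 0.0186, 0.0311 and 0.0311). The call of Rpl11 was lost without CardioGRKO replicate 1, or GRflox replicate 2 or 4, with values of 0.15 to 0.16 and adjusted p of 0.0572 to 0.0588. That of Rpl18 was lost without CardioGRKO replicate 1 or 2, or GRflox replicate 3 or 5, with values of 0.14 to 0.18 and adjusted p of 0.0576 to 0.097, and also with only the groups compared and when thinned to the smallest library (0.16 to 0.19, adjusted p of 0.0548 to 0.38). That of Rps10 was lost without CardioGRKO replicate 1, 2 or 5, or GRflox replicate 2, 3 or 5, with values of 0.16 to 0.17 and adjusted p of 0.0561 to 0.0781. At ZT0, 4 of 81 members, among them Rpl22, Rps27l and Rpl12, had CardioGRKO values above all GRflox values, against 5.95% of all genes.

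No member was called lower at both times. Rplp0 forms the base of the stalk, on which the acidic proteins sit. At ZT12 it had 459, 462, 477, 474 and 433 CPM in CardioGRKO, against 517, 505, 511, 500.2 and 487 CPM in GRflox, with every CardioGRKO library under every GRflox library, as was true of 7.22% of all genes and of Rps3 as the only other member. Its log2 fold change was -0.13 ± 0.036 (edgeR adjusted p = 0.0123), and at ZT0, with 474, 492.6, 461, 471 and 460.2 CPM in CardioGRKO, against 484, 492.7, 516, 482 and 477 CPM in GRflox, it was -0.055 ± 0.036 (edgeR adjusted p = 0.349). The call at ZT12 held whichever library was left out and was lost when all were thinned to the smallest depth. No member had all CardioGRKO libraries under all GRflox libraries at ZT0, against 5.99% of all genes.

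Rps2 had 409.5, 403, 429, 451 and 389.7 CPM in CardioGRKO, against 457, 454, 486, 474 and 446 CPM in GRflox at ZT12. At ZT0 Rps2 had 388, 398, 395, 436 and 437 CPM in CardioGRKO, against 429.7, 452, 474, 473 and 395 CPM in GRflox. The ranges overlapped, and the log2 fold changes were -0.15 ± 0.052 (edgeR adjusted p = 0.0371) and -0.11 ± 0.052 (edgeR adjusted p = 0.155). The ZT12 call was lost without CardioGRKO replicate 1, 2 or 5, or GRflox replicate 1, 3 or 4, with values of -0.13 to -0.16 and adjusted p of 0.0507 to 0.097, and also with no filter and when thinned to the smallest library (-0.15 to -0.17, adjusted p of 0.0514 to 0.0724).

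Rps14, a protein of the small-subunit platform whose loss underlies a human anaemia, was the member called lower at ZT0. It had 82.2, 75.3, 76.3, 78.7 and 78.3 CPM in CardioGRKO, against 96.0, 88.4, 87.7, 97.0 and 76.4 CPM in GRflox at ZT0. At ZT12 Rps14 had 79.8, 86.1, 76.9, 85.0 and 85.5 CPM in CardioGRKO, against 82.5, 86.7, 87.4, 95.1 and 84.9 CPM in GRflox. The groups overlapped at both times, and the log2 fold changes were -0.19 ± 0.056 (edgeR adjusted p = 0.0238) at ZT0 and -0.080 ± 0.056 (edgeR adjusted p = 0.346) at ZT12. The ZT0 value was -0.20 (adjusted p = 0.0264) without the shallowest library. The call was lost without CardioGRKO replicate 2 or 3, or GRflox replicate 1 or 4, with values of -0.16 to -0.18 and adjusted p of 0.0581 to 0.0834.

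The muscle paralog Rpl3l did not pass the test in any comparison. At ZT12 it had 258, 301, 288, 289 and 273 CPM in CardioGRKO, against 299, 282, 285, 284 and 282 CPM in GRflox, and at ZT0 it had 252, 293, 304, 296 and 281 CPM in CardioGRKO, against 304, 287, 278, 265 and 272 CPM in GRflox. The groups overlapped at both times, with log2 fold changes of -0.023 ± 0.050 and 0.023 ± 0.050 (edgeR adjusted p = 0.806 and 0.821). The 95% intervals, -0.12 to 0.076 and -0.075 to 0.12 on the log2 scale, lie within 1.5-fold either way. Rpl3 had 97.5, 90.0, 99.4, 84.0 and 82.2 CPM in CardioGRKO, against 93.7, 97.1, 99.4, 100.1 and 86.8 CPM in GRflox at ZT12. At ZT0 Rpl3 had 99.4, 78.6, 81.5, 87.5 and 84.0 CPM in CardioGRKO, against 80.6, 78.6, 86.3, 92.3 and 75.3 CPM in GRflox, and its groups overlapped at both times. Its log2 fold changes were -0.074 ± 0.066 (edgeR adjusted p = 0.478) and 0.054 ± 0.067 (edgeR adjusted p = 0.664).

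In this ventricle Rpl3l was the more abundant of the pair per length, at 177 CPM per kilobase against 65.7 for Rpl3. Of the windows of Rpl3, 83.2% occur in copies, and the part of this in its level was not tested. Rpl3l held 72.4 ± 2.29% of the pair's level per kilobase in CardioGRKO and 71.7 ± 1.29% in GRflox at ZT12, and 73.6 ± 3.19% and 74.2 ± 2.22% at ZT0 (SD, n = 5 each). Between genotypes the groups differed by less than their spread at both times. Between times in GRflox the means differed by more than either SD, and the ranges overlapped (70.6 to 73.3% at ZT12 and 70.8 to 76.1% at ZT0). Rpl7, a large-subunit protein, and the assembly factor Rpl7l1 were paired by name, and their sequences were not aligned here. Rpl7 had 181, 188, 191, 174 and 179 CPM in CardioGRKO, against 196, 186, 184, 176 and 178 CPM in GRflox at ZT12. At ZT0 Rpl7 had 183, 179, 175, 179 and 186 CPM in CardioGRKO, against 184, 182, 181, 174 and 183 CPM in GRflox. Its groups overlapped, with log2 fold changes of -0.015 ± 0.037 (edgeR adjusted p = 0.834) and -0.0037 ± 0.037 (edgeR adjusted p = 0.975). Rpl7l1 had 41.1, 40.0, 48.4, 43.4 and 37.5 CPM in CardioGRKO, against 40.1, 38.5, 37.0, 41.0 and 35.5 CPM in GRflox at ZT12. At ZT0 Rpl7l1 had 42.0, 49.6, 45.4, 43.3 and 49.7 CPM in CardioGRKO, against 42.9, 43.6, 48.0, 42.0 and 40.8 CPM in GRflox. The log2 fold changes were 0.13 ± 0.066 (edgeR adjusted p = 0.157) and 0.086 ± 0.066 (edgeR adjusted p = 0.438). Neither was called, and their groups overlapped at both times.

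The comparison of ZT12 with ZT0 asks how the members differ between lights off and lights on within a genotype. In CardioGRKO edgeR called 0 of 81 members in either direction, against 9.17% of all genes tested (4.42% higher and 4.75% lower). At an unadjusted p under 0.05 there was 1 member, Rpl23a, at -0.18 ± 0.062 (edgeR adjusted p = 0.0706). DESeq2 called 1 member lower, against 682 higher and 795 lower of all 14007 genes. With limma 0 members were called, against 642 and 661 of all genes. The median log2 fold change was -0.029, beside 0.0017 for all genes, and it lay between -0.052 and -0.021 in 21 alternatives, with -0.048 to -0.052 without replicate 3 or 4 of either time. Rpl4 was the only member with all ZT12 libraries under all ZT0 libraries, against 3.61% of all genes, at -0.067 ± 0.035 (edgeR adjusted p = 0.266). For 79 or 80 of the 81 members, depending on the comparison, the 95% interval lay within 1.5-fold either way.

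In GRflox 2 members were higher at ZT12 than at ZT0 and 0 lower, or 2.47% of the members against 17.3% of all genes (8.13% higher and 9.17% lower). Rpl3 had 93.7, 97.1, 99.4, 100.1 and 86.8 CPM at ZT12, against 80.6, 78.6, 86.3, 92.3 and 75.3 CPM at ZT0, with overlap and a log2 fold change of 0.21 ± 0.066 (edgeR adjusted p = 0.0298). In CardioGRKO it had 97.5, 90.0, 99.4, 84.0 and 82.2 CPM at ZT12, against 99.4, 78.6, 81.5, 87.5 and 84.0 CPM at ZT0, with 0.083 ± 0.067 (edgeR adjusted p = 0.514). Rps28, a small-subunit protein near the mRNA exit, had 80.9, 92.0, 84.5, 83.4 and 80.2 CPM at ZT12, against 82.7, 72.5, 75.0, 74.7 and 75.0 CPM at ZT0 in GRflox, with 0.15 ± 0.052 (edgeR adjusted p = 0.0485). In CardioGRKO it had 81.8, 74.0, 76.8, 89.0 and 75.0 CPM at ZT12, against 76.1, 81.8, 79.0, 79.7 and 81.2 CPM at ZT0, with -0.0055 ± 0.052 (edgeR adjusted p = 0.974). The ranges of both genes overlapped between the times in both genotypes. The call of Rpl3 in GRflox was lost without GRflox ZT12 replicate 2, 3 or 4, or GRflox ZT0 replicate 1, 2 or 5, with values of 0.18 to 0.20 and adjusted p of 0.0572 to 0.0876, and also when thinned to the smallest library and with a length correction (0.18 to 0.19, adjusted p of 0.0673 to 0.417). That of Rps28 was lost without GRflox ZT12 replicate 2, 3 or 4, or GRflox ZT0 replicate 2, 3, 4 or 5, with values of 0.11 to 0.15 and adjusted p of 0.0697 to 0.147. It was also lost with TMM factors from genes other than the members, with no filter, with limma-trend, with only the groups compared, with the replicate block, when thinned to the smallest library and with a length correction (0.083 to 0.15, adjusted p of 0.0522 to 0.52), in all 14 of 21 alternatives. An exon of Kank3 on the opposite strand covers 5.1% of the exon bases of Rps28. No member had separate groups in GRflox, against 5.93% of all genes higher and 6.57% lower. The median of 0.031, beside 0.0081 for all genes, turned to -0.020 with a correction for gene length and lay between 0.010 and 0.045 in the other 20 alternatives. It was 0.010 without GRflox ZT12 replicate 1 or 2, 0.019 without GRflox ZT0 replicate 4 and 0.021 when thinned to the smallest library. At an unadjusted p under 0.05 there were 8 members, and no count over all genes was made at that threshold. DESeq2 called 3 higher and 0 lower, against 1199 and 1328 of all 14007 genes. With limma the calls were 1 and 0, against 1066 and 1226 of all genes.

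The interaction, which tests whether the time difference depends on genotype, called 0 of the 81 members by edgeR, DESeq2 or limma, against 0.186% of all genes by edgeR (0.0643% higher and 0.121% lower). At an unadjusted p under 0.05 there was 1 member, Rps28, at -0.15 ± 0.073 (edgeR adjusted p = 0.822). The members' median was -0.058, beside -0.0026 for all genes, with 64 of 81 negative, and it lay between -0.072 and -0.012 in the alternatives, the last with a correction for gene length. The interaction of Rps4l was 0.036 ± 0.20 (edgeR adjusted p = 0.997) and that of Rps27l 0.017 ± 0.10 (edgeR adjusted p = 0.998), so their genotype differences at ZT12 and ZT0 were not separable. The 95% interval of Rps4l, -0.35 to 0.42, still allows a sizeable difference between the times.

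**Figure D5:**
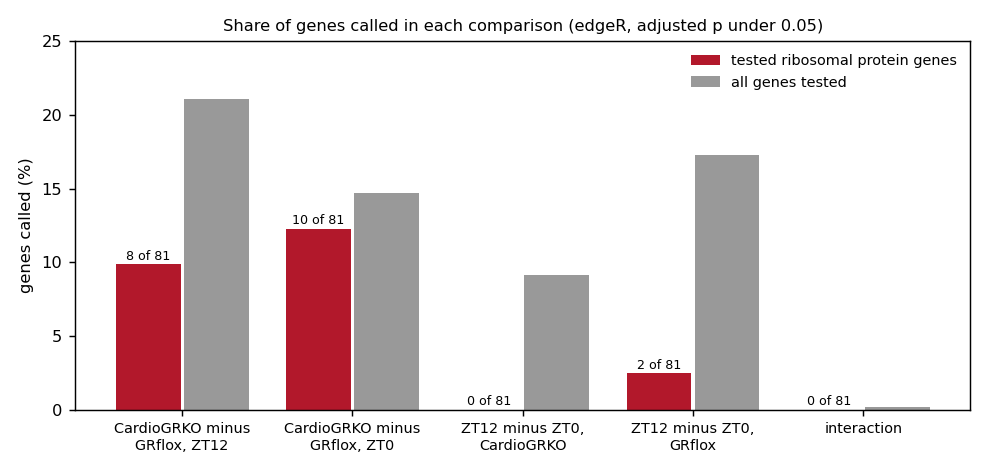
Percent of genes called by edgeR at an adjusted p under 0.05 in each of 5 comparisons, for the 81 tested members (red, with counts) and for all 14007 genes (grey); bars start at 0. The members' share is 9.88% against 21.1% between genotypes at ZT12, and 2.47% against 17.3% between times in GRflox.

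Other genes of the pathway were examined from lists chosen with earlier results of these data known. Of the ribosomal proteins named outside the rule 3 were tested, among them Fau and Gnb2l1 (Rack1), and between genotypes the smallest edgeR adjusted p was 0.0702, for Fau at ZT12 (-0.15 ± 0.056). Between times Fau was higher at ZT12 in GRflox, by 0.19 ± 0.057 (adjusted p = 0.0222). Of 18 other messages known to carry the TOP motif, 3 were higher and 1 lower at ZT12 and 3 higher and 0 lower at ZT0, with medians of 0.0025 and 0.052. The shares called, 22.2% and 16.7%, were near the 21.1% and 14.7% of all genes. Between times 1 TOP message was higher and 0 lower in CardioGRKO, or 5.56% against 9.17% of all genes. In GRflox 3 were higher and 0 lower, or 16.7% against 17.3%. The elongation factor message Eef1a1 was higher in CardioGRKO by 0.18 ± 0.052 at ZT12 and 0.21 ± 0.053 at ZT0 (edgeR adjusted p = 0.0141 and 0.00818), and the histone chaperone Nap1l1 by 0.24 ± 0.057 and 0.24 ± 0.057 (adjusted p = 0.00353 and 0.00588).

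The ribosome assembly genes called between genotypes were all higher in CardioGRKO. Of 49 biogenesis and RNA polymerase I genes, 6 were higher and 0 lower at ZT12, or 12.2%, and 5 higher and 0 lower at ZT0, or 10.2%. Of all genes, 10.4% were called higher and 10.7% lower at ZT12, and 7.36% and 7.35% at ZT0. The list's shares lie above those of all genes called higher and under the 21.1% and 14.7% called in either direction. The list's medians were 0.066 and 0.023. Between times 0 were called by edgeR in CardioGRKO (7 at an unadjusted p under 0.05), against 9.17% of all genes. In GRflox 1 was higher and 2 lower, or 6.12% against 17.3%. Polr1e, a subunit of the polymerase that makes ribosomal RNA, was higher in CardioGRKO by 0.87 ± 0.065 at ZT12 and 0.75 ± 0.065 at ZT0 (edgeR adjusted p = 1e-09 and 2.27e-08). It averaged 30.02 CPM in CardioGRKO and 16.5 CPM in GRflox at ZT12, and 30.4 and 17.9 CPM at ZT0. The assembly factors Wdr12, at 0.28 ± 0.070 and 0.24 ± 0.070, and Rrp12, at 0.40 ± 0.12 and 0.42 ± 0.12, were called higher at both times. Myc, a transcription factor of growth, was called at ZT0, at 0.57 ± 0.16 (edgeR adjusted p = 0.0148).

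Of 30 initiation factors, 2 were higher and 2 lower at ZT12, or 13.3%, and 0 higher and 1 lower at ZT0, or 3.33%, under the 21.1% and 14.7% of all genes. Eif4e, which binds the message cap, was lower, with a log2 fold change of -0.22 ± 0.041 at ZT12 (edgeR adjusted p = 0.000339). Of 12 elongation and termination genes, 1 was higher and 2 lower at ZT12, or 25% against 21.1% of all genes, and 0 and 1 at ZT0, or 8.33% against 14.7%. Eef2k, the kinase that inhibits elongation, was lower in CardioGRKO, with log2 fold changes of -0.47 ± 0.080 at ZT12 and -0.28 ± 0.084 at ZT0 and higher at ZT12 than at ZT0 by 0.45 ± 0.083 in CardioGRKO and 0.64 ± 0.081 in GRflox (edgeR adjusted p = 0.000127, 0.025, 0.000919 and 4e-06). Between times, 1 initiation factor was higher and 1 lower in CardioGRKO, or 6.67%, and 0 and 3 in GRflox, or 10%. Of the elongation and termination genes, 1 was higher and 1 lower in CardioGRKO, or 16.7%, and 2 and 1 in GRflox, or 25%. Of all genes, 9.17% and 17.3% were called between times in CardioGRKO and GRflox. The medians of both lists between genotypes lay between -0.095 and 0.0038.

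The list of mTOR pathway genes and proteins that bind TOP messages had 2 of 24 higher and 7 lower at ZT12, or 37.5% against 21.1% of all genes, and 2 higher and 3 lower at ZT0, or 20.8% against 14.7%. Between times it had 1 and 1 in CardioGRKO, or 8.33% against 9.17% of all genes, and 5 and 3 in GRflox, or 33.3% against 17.3%. Sesn1, an inhibitor of mTOR signalling, had a log2 fold change of -0.60 ± 0.065 between genotypes at ZT12 (edgeR adjusted p = 2.94e-07). It was higher at ZT12 than at ZT0 in GRflox, by 0.70 ± 0.065 (adjusted p = 3.54e-08), and its interaction of -0.57 ± 0.092 was the only one called in these 6 lists (adjusted p = 0.00531). Ddit4, another mTOR inhibitor and a known glucocorticoid target, had -0.98 ± 0.23 at ZT0 (edgeR adjusted p = 0.00496). The kinases Akt1 and Akt2 were lower at both times, with -0.27 ± 0.041 and -0.25 ± 0.044 at ZT12 (edgeR adjusted p = 3.55e-05 and 0.000169). Translation itself was not measured.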

How the data were processed

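Per the labels' protocols, poly(A)-enriched libraries were made with a TruSeq RNA kit and read in pairs of 75 bases. The authors deposited raw counts of reads for each gene, as whole numbers. The submitters' processing notes list STAR 2.5.1, Subread 1.5.1 (featureCounts), DESeq2 1.38.3 and the build mm10. Settings for strand, multi-mapping reads and annotation were not given in the sources used here. Lines of 1 Entrez gene were summed (369 genes, at most 0.026% of a library's counts), giving 24059 genes.

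Counts were fitted with edgeR 4.0.16 in R 4.3.3 (glmQLFit and glmQLFTest on group means of all 20 libraries, TMM factors 0.961 to 1.04, filterByExpr with minimum count 10 and minimum total 15), which tested 14007 genes including 81 of the 87 members. P-values were adjusted by Benjamini-Hochberg over all genes of a contrast, with a threshold of 0.05. Standard errors are the size of the log2 fold change over the square root of F. CPM is TMM-scaled. Alternatives used DESeq2 1.42.0 and limma 3.58.1. The code was tested on simulated counts. Chi-square per gene between libraries of 1 group was 4.22 to 21.02, above sampling noise for every pair. Exon lengths and shared 75-base windows came from GENCODE M21 (lengths for 87 of 87 members and 87.8% of genes), start sequences from RefSeq, and figures from matplotlib 3.10.9.

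The members and lists were chosen with earlier results of these data known. Any member may be named. Values in every library are given for paralog pairs whose minor member passed the filter and, per comparison, for up to 3 members called higher and 3 called lower by smallest p. The 3 highest and 3 lowest members per length are named, and up to 4 called genes of each other list. Members called beyond these are given by log2 fold change. Coordinates are those of mm10. Some genes that meet these rules are not reported here.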

Additional observations from a re-analysis of the deposited data

Results flagged for a closer look

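In 7 of the 80 group values scanned, 1 of the 5 libraries lay so far from the rest that its gap passed the critical value of Dixon's test, 0.71 of the range. Chance alone flags about 1 in 20 groups. The shallowest library, CardioGRKO replicate 1 at ZT0, accounted for 3 of them. It had 22.9 CPM of Rps27l, against 17.9, 18.1, 19.1 and 19.3 CPM in the rest of its group, and 33.8 CPM of Rpl38, against 29.8, 30.3, 30.4 and 30.5 CPM. Its Rpl3l made up 68.2% of the Rpl3 and Rpl3l level per kilobase, against 73.91, 74.05, 75.91 and 75.94% in the rest of its group. Its depth moves with these values, and its part was not tested.

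GRflox replicate 4 at ZT0 had 174 CPM of Rpl7, against 181, 182, 183 and 184 CPM in its group, and GRflox replicate 1 at ZT0 had 82.7 CPM of Rps28, against 72.5, 74.7, 75.0 and 75.0 CPM. CardioGRKO replicate 2 at ZT12 had 3.50 CPM of the scarce Rpl22l1, against 2.47, 2.61, 2.64 and 2.66 CPM. GRflox replicate 1 at ZT12 had 299 CPM of Rpl3l, against 282, 282, 284 and 285 CPM.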

How the results depend on the processing

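Across 95 member results, 2051 of 2141 alternative values stayed on the same side of the threshold, 87 lost a call and 3 gained one. Of values called in either fit, 0 reversed direction. A change of sign in a result called in neither fit was not counted. Only the 20 results called in the main fit could lose a call, so the 87 losses fall on these. Thinned to the smallest library, the counts called were 3 higher and 0 lower at ZT0 and 1 and 1 between genotypes at ZT12. Between times in GRflox 0 were higher, where depth limits the test. Calls over all 12691 genes tested at that depth fell too. They were 284 higher and 302 lower at ZT0, 418 and 574 at ZT12, and 373 and 380 between times in GRflox. Thinning also ended the calls of Rpl22 at both times, of Rpl38 at ZT12 and of Rpl36a, Rps10 and Rps14 at ZT0. DESeq2 called 5 lower between genotypes at ZT12 and 1 lower between times in CardioGRKO, against 1633 and 795 of all 14007 genes. With a correction for length, 1 member was lower between times in CardioGRKO, and 0 were higher and 1 lower in GRflox. In GRflox 1 member was higher with TMM factors from genes other than the members, with no filter, with limma-trend and with only the groups compared, which also gave 1 lower. Without the 50 most abundant genes the members' share was 1.54% in CardioGRKO and 1.495% in GRflox at ZT12, and 1.57% and 1.48% at ZT0.

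Leaving out each library in turn gave 3 to 8 higher and 1 to 4 lower between genotypes at ZT12, 3 to 11 and 0 to 2 at ZT0, 0 to 0 higher and 0 to 1 lower between times in CardioGRKO, 0 to 4 and 0 to 0 in GRflox, and 0 to 0 in both directions for the interaction. At ZT12 the higher count was 8 without GRflox replicate 1 and 3 without GRflox replicate 3, 4 or 5, and the lower count 1 without GRflox replicate 3 or CardioGRKO replicate 5. At ZT0 the lower count was 0 without CardioGRKO replicate 2 or 3 or GRflox replicate 1 or 4, and 2 without GRflox replicate 5. In CardioGRKO 1 was lower between times without replicate 4 of either time, and in GRflox 4 were higher without ZT12 replicate 5. The share ranged from 1.14 to 1.16% in CardioGRKO and 1.07 to 1.10% in GRflox at ZT12, and from 1.15 to 1.17% and 1.08 to 1.09% at ZT0. Libraries with the same replicate number did not meet the rule for pairs, a correlation of deviations over 0.1 in every pair: between genotypes r was 0.0097 to 0.23 at ZT12, with 3 of 5 pairs over 0.1, and -0.048 to 0.17 at ZT0, and between times it was -0.27 to 0.062 in CardioGRKO and -0.061 to 0.14 in GRflox. Not every library correlated best with its own number in any of the 4 comparisons. With the replicate number as a block the counts were 6 higher and 4 lower at ZT12, 10 and 1 at ZT0, 0 and 0 between times in CardioGRKO, 2 and 0 in GRflox, and 0 and 0 for the interaction, so the block moved no count by over 1.5 times; Rps28 in GRflox lost its call under it (adjusted p = 0.0602).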
